A study of Mus musculus with 18 samples.

Results

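The 10 genes described here, *Galnt1*, *Galnt2*, *Galnt3*, *Galnt4*, *Galnt6*, *Galnt7*, *Galnt10*, *Galnt11*, *Galnt16* and *Galnt18*, encode polypeptide GalNAc transferases, and they are 10 of the 55414 genes in the count table. The set was chosen by name from gene symbols matched to the Ensembl identifiers of the table, and it was selected on these data because *Galnt3* was lower with all 4 knockdown siRNAs. The knockdown values of *Galnt3* are therefore a description and carry no test, whereas the other members and the comparisons without that choice were tested. Of the 10 members, 8 passed the filter on low counts and 2, *Galnt10* and *Galnt18*, did not. The cells were N2A (Neuro-2a), a mouse neuroblastoma line. They were transfected for 72 h with Silencer Select siRNAs, either non-targeting (Scramble KD), against *Fmr1* (*Fmr1* KD) or against *Zfp598* (*Zfp598* KD). Each condition used 2 siRNAs, named A and B, and each siRNA gave 3 libraries of rRNA-depleted total RNA, 18 libraries in all. *Fmr1* encodes FMRP, an RNA-binding repressor of translation, and *Zfp598* encodes a ubiquitin ligase that recognises collided ribosomes. All groups received a transfected siRNA, so no untreated cells enter these comparisons.

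Polypeptide GalNAc transferases start mucin-type O-glycosylation. In the Golgi they attach N-acetylgalactosamine to serine and threonine residues of secreted and membrane proteins, and further enzymes extend that sugar into longer, often sialylated chains. The family has many members because each enzyme prefers different peptide stretches. Some act on bare peptides, and others, called follow-up enzymes, act mainly next to a sugar that is already in place.

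The libraries held 7674724 to 15414590 counts. One feature without an annotation entry took 5.00% to 25.8% of them, most in *Zfp598* siRNA A replicate 3 (25.8%) and replicate 2 (15.2%). *Fmr1* mRNA was lower with both of its siRNAs (log2 fold change −1.60 with siRNA A and −1.30 with siRNA B, edgeR adjusted p = 1.57e-08 and 1.31e-07), and *Zfp598* mRNA with both of its own (−1.54 and −1.52, adjusted p = 1.30e-07 and 3.08e-08). More *Fmr1* mRNA was left with *Fmr1* siRNA B than with *Fmr1* siRNA A (0.55, adjusted p = 0.00227). *Fmr1* mRNA was also lower with *Zfp598* siRNA B (−0.33, adjusted p = 0.0360), and with *Zfp598* siRNA A it was 0.29 (adjusted p = 0.108). The part of *Fmr1* mRNA in the *Zfp598* KD values was not tested. Of 15 sympathetic neuroblast markers 12 were retained, led by *Tubb3*, *Hand2* and *Stmn2*, whereas *Nefl* and *Nefm* were near 0. The summed neuroblast markers, in CPM (counts scaled to the library's size), moved with the siRNA groups, from 1963 to 2101 in Scramble siRNA A to 1160 to 1314 in Scramble siRNA B, with the knockdown libraries between 1321 and 2049. Of 10 epithelial markers *Grhl2*, *Krt8* and *Esrp2* were retained, with means of 42.5, 3.42 and 2.30 CPM, and *Cdh1* and *Epcam* averaged 0.471 and 0.0226 CPM. Their sum was 56.3 to 70.6 CPM with Scramble siRNA A and *Fmr1* siRNA A and 37.3 to 46.7 CPM in the other 4 groups, and *Grhl2* fell with *Zfp598* siRNA A (−0.64, adjusted p = 5.42e-04) and was lower with Scramble siRNA B than with Scramble siRNA A (−0.69, adjusted p = 6.32e-05). Fibroblast markers summed to 6.46 to 11.1 CPM in Scramble KD and 9.10 to 19.1 CPM in the knockdown libraries. *Fmr1* siRNA B replicate 1 stood apart, with pluripotent stem cell markers summing to 64.4 CPM against 4.28 to 10.1 CPM in the other 17 libraries, and Y-linked markers at 11.6 CPM against at most 0.149 CPM. Member calls that were lost without that library are named below. Tests of marker and list genes were not rerun without it. In these bulk samples, fewer cells of a type and less RNA per cell cannot be told apart.

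*Galnt3*, whose product glycosylates the phosphate-regulating hormone FGF23 among other proteins, had the lowest levels in *Fmr1* KD and intermediate levels in *Zfp598* KD. The gene (ENSMUSG00000026994) lies on the minus strand of chr2:65913110-65955482 in GRCm39. In the Scramble KD libraries it measured 51.8, 56.8 and 57.6 CPM with siRNA A and 67.4, 65.1 and 69.1 CPM with siRNA B. With *Fmr1* siRNA A it measured 19.5, 21.0 and 20.0 CPM, and with *Fmr1* siRNA B 18.5, 20.2 and 24.5 CPM. The *Zfp598* KD libraries lay in between, with 30.2, 31.2 and 40.4 CPM for siRNA A and 32.7, 36.4 and 35.3 CPM for siRNA B. The ranges of the 3 conditions did not overlap, since the highest *Fmr1* KD library was below the lowest *Zfp598* KD library, and the highest *Zfp598* KD library was below the lowest Scramble KD library. These levels rested on 227 to 1081 counts per library.

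**Figure D1:**
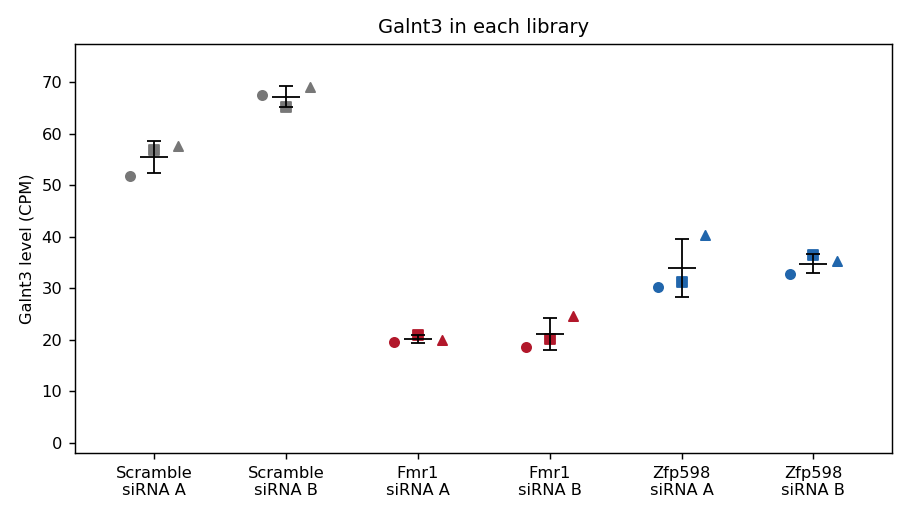
*Galnt3* level (y axis, CPM) in each of the 18 libraries, by siRNA (x axis), with circles, squares and triangles for replicates 1, 2 and 3, and the mean with SD in black (n = 3). The *Fmr1* KD libraries lie between 18.5 and 24.5 CPM, the *Zfp598* KD libraries between 30.2 and 40.4 CPM and the Scramble KD libraries between 51.8 and 69.1 CPM.

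Against the Scramble siRNA of the same letter, the log2 fold change of *Galnt3* was −1.46 (SE 0.112) with *Fmr1* siRNA A and −1.67 (SE 0.111) with *Fmr1* siRNA B. It was −0.72 (SE 0.111) with *Zfp598* siRNA A and −0.95 (SE 0.108) with *Zfp598* siRNA B. Both A comparisons share the Scramble siRNA A libraries and both B comparisons share the Scramble siRNA B libraries. Without *Fmr1* siRNA B replicate 1 the *Fmr1* siRNA B value was −1.58. With both siRNAs of a target pooled, *Galnt3* in *Fmr1* KD was at 0.336 of its Scramble KD level (log2 −1.57) and in *Zfp598* KD at 0.559 (log2 −0.84).

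The comparisons that the choice of *Galnt3* did not use were tested with edgeR over all 17901 genes retained. In the fit over libraries *Galnt3* was lower in *Fmr1* KD than in *Zfp598* KD by 0.73 on the log2 scale (−0.73, SE 0.103, adjusted p = 3.79e-04), and each of the 6 *Fmr1* KD libraries was below each of the 6 *Zfp598* KD libraries. With counts summed per siRNA, which leaves 2 values a condition, the difference was −0.72 and the call was lost (adjusted p = 0.998). In the fit over libraries it was the single member of 8 to pass there, where 2.27% of all genes were higher and 3.11% lower. The 2 siRNAs of a target gave *Galnt3* levels that did not differ beyond the spread between libraries. The siRNA B minus siRNA A difference was 0.06 (SE 0.115, adjusted p = 0.748) for *Fmr1* and 0.05 (SE 0.113, adjusted p = 0.766) for *Zfp598*. The Scramble siRNAs lay further apart, at 0.28 (SE 0.106, adjusted p = 0.0649), which missed the threshold here but passed with DESeq2, with the replicate block and without *Zfp598* siRNA A replicates 2 and 3 and *Fmr1* siRNA B replicate 1 together. It also passed without *Zfp598* siRNA A replicate 1 or replicate 3 alone. From lowest to highest, the order of mean *Galnt3* levels was *Fmr1* siRNA A (20.2 CPM), *Fmr1* siRNA B (21.1 CPM), *Zfp598* siRNA A (34.0 CPM), *Zfp598* siRNA B (34.8 CPM), Scramble siRNA A (55.4 CPM) and Scramble siRNA B (67.2 CPM). The siRNAs of the same target, for *Fmr1* and for *Zfp598*, did not differ beyond their spread, and for the Scramble siRNAs the call depended on the fit.

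*Galnt1* and *Galnt2* encode broadly expressed transferases that act on bare peptides. *Galnt1* went the opposite way from *Galnt3* with 3 of the 4 knockdown siRNAs. It measured 101, 103 and 87.9 CPM with Scramble siRNA A and 106, 98.6 and 99.0 CPM with Scramble siRNA B. The *Fmr1* KD libraries were all higher, at 117, 131 and 119 CPM with siRNA A and 147, 155 and 159.8 CPM with siRNA B. *Zfp598* siRNA B gave the highest levels of all, 232, 224 and 219.7 CPM, while *Zfp598* siRNA A, at 127, 106 and 102 CPM, overlapped Scramble siRNA A. *Galnt1* rose by a log2 fold change of 0.33 (SE 0.0871, adjusted p = 0.00862) with *Fmr1* siRNA A, by 0.61 (SE 0.0868, adjusted p = 3.46e-05) with *Fmr1* siRNA B and by 1.16 (SE 0.0873, adjusted p = 1.82e-08) with *Zfp598* siRNA B. With *Zfp598* siRNA A it was 0.20 (SE 0.0880, adjusted p = 0.142). The difference between the *Zfp598* siRNA effects was itself past the threshold (0.95, SE 0.123, adjusted p = 1.44e-05), whereas that between the *Fmr1* siRNA effects was 0.28 (adjusted p = 0.116). With *Fmr1* siRNA A the call was lost without Scramble siRNA A replicate 3 (0.26, adjusted p = 0.0622) and without *Fmr1* siRNA A replicate 2 (0.28, adjusted p = 0.0530).

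Pooled over siRNAs, *Galnt1* rose in *Zfp598* KD by 0.77 (SE 0.179, adjusted p = 0.0307), a value made of one siRNA at 1.16 and one at 0.20. That call was lost with any 1 of 8 libraries left out (adjusted p up to 0.0911). In *Fmr1* KD the pooled value was 0.48 (SE 0.178, adjusted p = 0.114).

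*Galnt2* had the highest mean level per kilobase of exon among the members in all groups but *Zfp598* siRNA B, and its changes were small. It measured 201, 189 and 203 CPM with Scramble siRNA A and 159, 172 and 173 CPM with Scramble siRNA B. *Fmr1* siRNA A gave 227, 223 and 222 CPM, and *Fmr1* siRNA B gave 204, 246 and 222 CPM. All 6 *Fmr1* KD libraries were above all 6 Scramble KD libraries. *Galnt2* rose with *Fmr1* siRNA B (0.41, SE 0.0855, adjusted p = 0.00140) and, pooled, in *Fmr1* KD (0.29, SE 0.0873, adjusted p = 0.0491). The pooled call was lost with any 1 of 13 libraries left out (adjusted p up to 0.118). With *Fmr1* siRNA A the value was 0.18 (adjusted p = 0.144), and the 2 *Zfp598* siRNAs gave 0.14 and 0.16 (adjusted p = 0.332 and 0.184).

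*Galnt7* and *Galnt4* encode enzymes that add sugars near ones already in place. *Galnt7* measured 39.03, 44.6 and 42.6 CPM with Scramble siRNA A and 35.0, 35.3 and 30.8 CPM with Scramble siRNA B. The *Fmr1* siRNA B libraries, at 49.3, 51.9 and 48.7 CPM, were above both Scramble siRNAs. *Galnt7* rose with *Fmr1* siRNA B by 0.57 (SE 0.103, adjusted p = 4.16e-04) and by 0.59 (adjusted p = 0.00149) without replicate 1 of that siRNA. With *Fmr1* siRNA A, at 47.1, 51.2 and 44.6 CPM, the value was 0.18 (adjusted p = 0.234). The *Fmr1* siRNAs themselves differed by only 0.07 in *Galnt7* (adjusted p = 0.687), and the Scramble siRNAs by −0.32 (SE 0.104, adjusted p = 0.0299), a call lost without Scramble siRNA A replicate 2 or 3 or Scramble siRNA B replicate 3 (adjusted p up to 0.115). *Galnt7* was also lower with *Zfp598* siRNA B, at 32.2, 34.9 and 30.7 CPM, than with *Zfp598* siRNA A, at 52.1, 42.5 and 38.8 CPM (−0.46, SE 0.106, adjusted p = 0.00240).

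*Galnt4* moved in opposite directions with the 2 *Fmr1* siRNAs. It measured 3.61, 3.25 and 2.69 CPM with Scramble siRNA A, 5.86, 4.67 and 4.99 CPM with Scramble siRNA B, 5.81, 4.07 and 5.03 CPM with *Fmr1* siRNA A and 3.64, 3.85 and 3.02 CPM with *Fmr1* siRNA B. The *Fmr1* siRNA A libraries were all above Scramble siRNA A and the *Fmr1* siRNA B libraries all below Scramble siRNA B. The log2 fold changes were 0.65 (SE 0.190, adjusted p = 0.0164) and −0.56 (SE 0.185, adjusted p = 0.0326), and their difference was −1.21 (SE 0.265, adjusted p = 0.00221). The 2 Scramble siRNAs also differed, by 0.71 (SE 0.189, adjusted p = 0.00997), and against all 6 Scramble libraries both *Fmr1* calls were lost (0.30, adjusted p = 0.176, and −0.21, adjusted p = 0.424). The siRNA A call was also lost without Scramble siRNA A replicate 3 or *Fmr1* siRNA A replicate 1. The siRNA B call was lost without Scramble siRNA B replicate 1 or 3 or *Fmr1* siRNA B replicate 1 or 3. The level rested on 22 to 89 counts. In GENCODE M39, 5087 of the 5089 exonic bases of *Galnt4* lie inside exons of *Poc1b* on the same strand, so the split of reads between these genes is uncertain. *Poc1b* itself did not pass with either *Fmr1* siRNA (−0.02 and −0.06, adjusted p = 0.922 and 0.721). Like *Galnt4* it was higher with Scramble siRNA B than with Scramble siRNA A (0.41, adjusted p = 0.00701), and unlike *Galnt4* it was higher with *Fmr1* siRNA B than with *Fmr1* siRNA A (0.37, adjusted p = 0.0124). It also rose with *Zfp598* siRNA A (0.34, adjusted p = 0.0420) and siRNA B (0.41, adjusted p = 0.00454).

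*Galnt11*, whose product glycosylates members of the LDL receptor family and Notch1, changed little. It measured 43.0 to 58.7 CPM over the 18 libraries, and each knockdown siRNA overlapped the Scramble siRNA of the same letter. It passed in none of the 12 edgeR comparisons. Its log2 fold changes against Scramble siRNAs lay between −0.09 (SE 0.111) and 0.02 (SE 0.111). Its lowest unadjusted p in the comparisons was 0.179, so none was under 0.05 before adjustment.

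**Figure D2:**
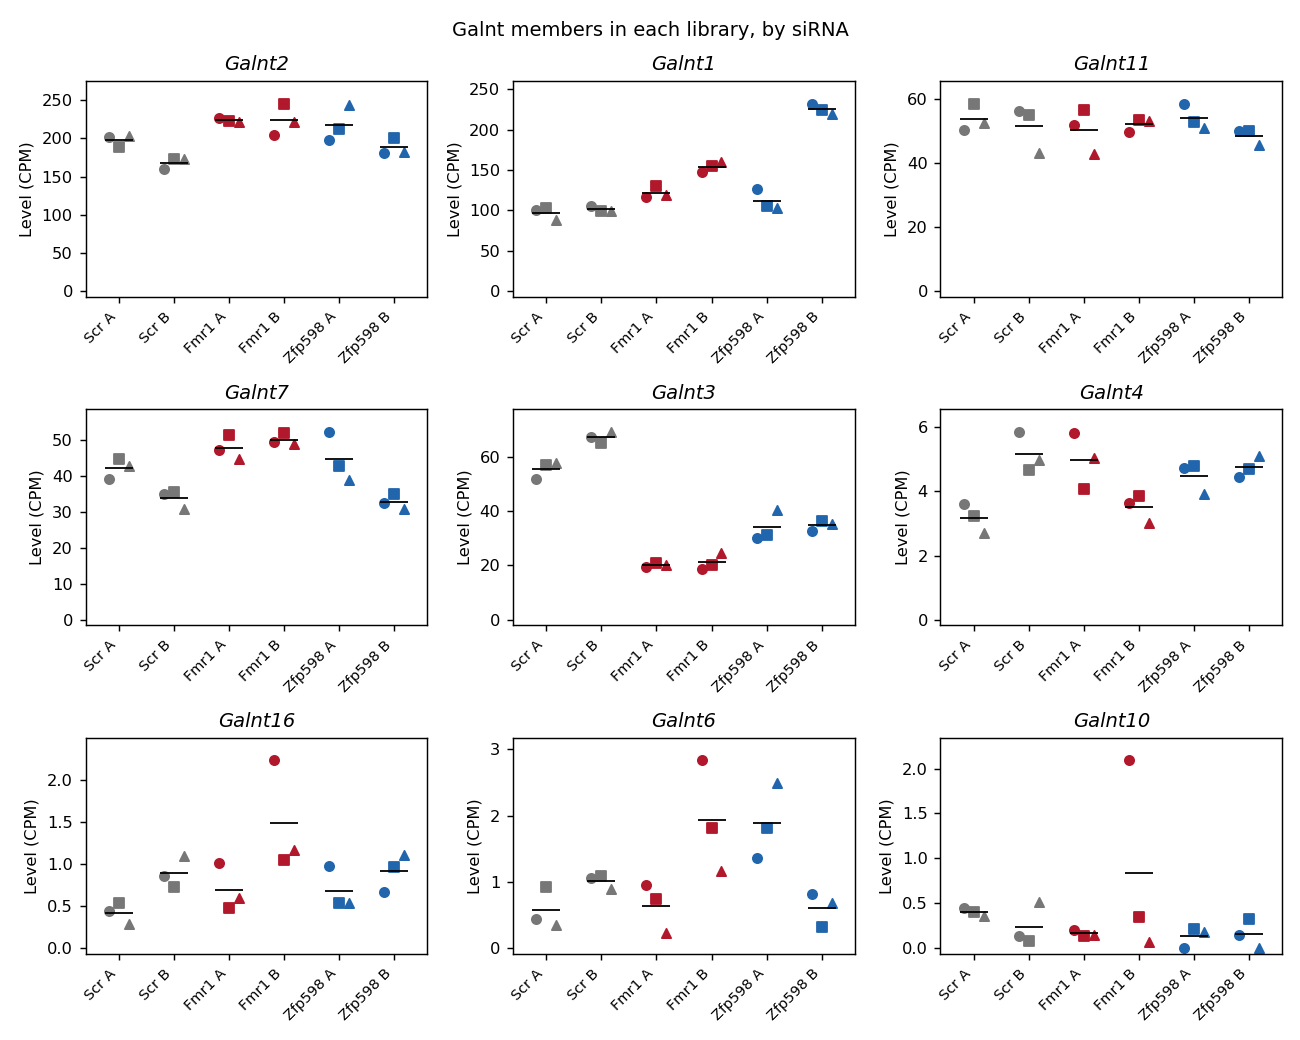
Levels (y axes, CPM, different scales) of the 9 members with any counts in each of the 18 libraries, by siRNA (x axes, Scr for Scramble), with circles, squares and triangles for replicates 1, 2 and 3 and the mean as a black line. *Galnt3* is lowest in *Fmr1* KD, *Galnt1* highest with *Zfp598* siRNA B (219.7 to 232 CPM), and *Galnt6*, *Galnt10* and *Galnt16* are highest in *Fmr1* siRNA B replicate 1.

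*Galnt6*, the closest relative of *Galnt3*, and *Galnt16* were scarce, with 3 to 42 and 3 to 33 counts per library. *Galnt6* measured 0.440, 0.927 and 0.354 CPM with Scramble siRNA A and 1.35, 1.81 and 2.49 CPM with *Zfp598* siRNA A, groups that did not overlap (log2 1.61, SE 0.493, adjusted p = 0.0374). With *Zfp598* siRNA B it measured 0.819, 0.320 and 0.681 CPM against 1.05, 1.09 and 0.895 CPM with Scramble siRNA B (−0.72, adjusted p = 0.314). The difference between these effects was −2.33 (SE 0.702, adjusted p = 0.0214), and *Zfp598* siRNA B was below siRNA A by −1.55 (adjusted p = 0.0197). Without *Zfp598* siRNA A replicates 2 and 3 and *Fmr1* siRNA B replicate 1, the *Galnt6* values were 1.18 (adjusted p = 0.307), −1.90 (adjusted p = 0.0987) and −1.13 (adjusted p = 0.249). The first of these calls was also lost without Scramble siRNA A replicate 1 or 3 or *Zfp598* siRNA A replicate 2 or 3. The second was lost without Scramble siRNA A replicate 3 or *Zfp598* siRNA B replicate 2, and the third without *Zfp598* siRNA A replicate 2 or 3 or *Zfp598* siRNA B replicate 2.

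*Fmr1* siRNA B replicate 1, the library with the pluripotency and Y-linked markers, held the highest level of the 3 scarcest members that were detected. *Galnt6* measured 2.83 CPM there and 1.82 and 1.17 CPM in the other *Fmr1* siRNA B libraries, and *Galnt16* measured 2.23 CPM there and 1.05 and 1.17 CPM in the others. *Galnt6* (1.57, SE 0.452, adjusted p = 0.0141) and *Galnt16* (1.08, SE 0.391, adjusted p = 0.0490) rose in *Fmr1* siRNA B over *Fmr1* siRNA A. Without that library the values were 1.20 (adjusted p = 0.0981) and 0.67 (adjusted p = 0.299). Neither call held without it, and the part of its stem cell markers in these values was not tested. The *Galnt6* call was also lost without *Fmr1* siRNA A replicate 3. The *Galnt16* call was lost with any 1 of 13 libraries left out, *Fmr1* siRNA B replicate 1 being the one that moved it most.

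*Galnt10* reached 31 counts (2.09 CPM) in *Fmr1* siRNA B replicate 1 and at most 8 counts in any other library, with 0 in 2 of them. *Galnt18* had 0 counts in all 18 libraries. A count of 0 allows up to 3 counts, which corresponds to 0.195 CPM in the largest library and 0.391 CPM in the smallest, for counting error only. *Galnt10* encodes a follow-up enzyme, and neither gene was tested.

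**Figure D3:**
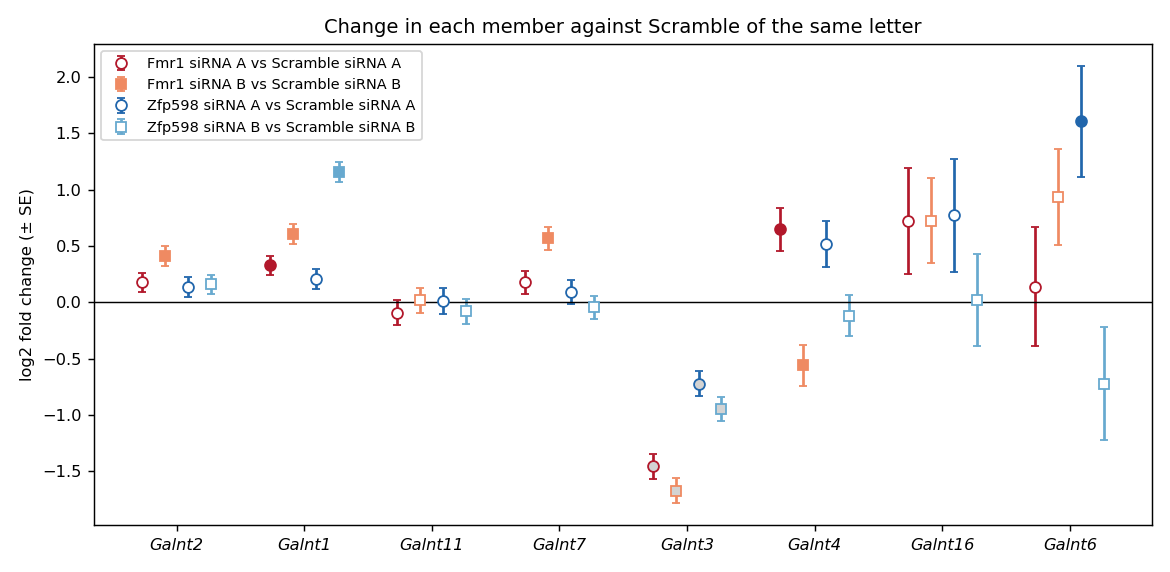
Log2 fold change against the Scramble siRNA of the same letter (y axis, with SE) for the 8 members retained (x axis). Filled points passed edgeR's test at an adjusted p under 0.05, open points did not, and the grey points of *Galnt3* (−1.67 to −0.72) carry no test because it was chosen for this pattern.

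Over the other 7 members retained, 2 passed with *Fmr1* siRNA A, both higher (*Galnt1* and *Galnt4*), where 10.0% of all genes tested were higher and 13.6% lower. With *Fmr1* siRNA B 4 passed, 3 higher (*Galnt1*, *Galnt2* and *Galnt7*) and 1 lower (*Galnt4*), against 11.3% of all genes higher and 11.3% lower. With *Zfp598* siRNA A 1 was higher (*Galnt6*), against 6.30% higher and 5.64% lower, and with *Zfp598* siRNA B 1 was higher (*Galnt1*), against 12.4% higher and 14.4% lower. The median log2 fold change of the 7 was 0.18, 0.57, 0.20 and −0.05 in the same order, and that of all genes was between −0.01 and 0.01. Of the 7, *Galnt4* was the only member lower past the threshold, and with 1 of the 4 siRNAs. Pooled over siRNAs, 1 of 7 passed in *Fmr1* KD (*Galnt2*, against 2.73% of genes higher and 3.80% lower) and 1 of 7 in *Zfp598* KD (*Galnt1*, against 0.916% higher and 1.04% lower). The medians of the 7 were 0.37 and 0.15 there. Neuroblast markers moved in the same comparisons. Of 12 retained, 8 were lower with *Fmr1* siRNA A and 7 were higher with *Fmr1* siRNA B. With *Zfp598* siRNA A 2 were higher and 2 lower, and with *Zfp598* siRNA B 8 were higher and 1 lower. Between the Scramble siRNAs themselves 7 were lower with siRNA B (median −0.70), against 12.2% of all genes. Same-letter values of these markers therefore carry the difference between their controls. Directly, 4 were higher with *Fmr1* siRNA B than with siRNA A, against 13.3%. Between the *Zfp598* siRNAs 4 were higher and 2 lower with siRNA B, against 15.6% and 19.7%. Among the marker lists, *Dbh*, of noradrenaline synthesis, passed in pooled *Fmr1* KD (1.35, adjusted p = 0.0408) and pooled *Zfp598* KD (2.20, adjusted p = 0.00610). *Gata3* passed in *Zfp598* KD (0.57, adjusted p = 0.0188) and the fibroblast marker *Pdgfra* in *Fmr1* KD (0.96, adjusted p = 0.00217). *Dbh*, at 7 to 80 counts, was −0.05 with *Fmr1* siRNA A (adjusted p = 0.939) and 2.50 with siRNA B (adjusted p = 2.56e-05). It passed with both *Zfp598* siRNAs (1.36 and 3.06, adjusted p = 0.0111 and 1.70e-06). *Gata3* passed with *Zfp598* siRNA B (0.83, adjusted p = 2.49e-05) but not with siRNA A (0.30, adjusted p = 0.108). Between *Fmr1* KD and *Zfp598* KD, *Gata3* (−0.53, adjusted p = 0.0132), *Gata2* (−0.69, adjusted p = 0.0195) and *Hand2* (−0.57, adjusted p = 0.0386) were lower and the stem cell marker *Tfcp2l1* higher (3.06, adjusted p = 0.0339), which measured 24.7 CPM in *Fmr1* siRNA B replicate 1 and at most 2.24 CPM elsewhere. The part of these markers in the members' values was not tested.

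Members also differed between the siRNAs of one condition. The Scramble siRNAs differed in 2 of 8 members (*Galnt4* higher and *Galnt7* lower with siRNA B), where 10.4% of all genes were higher and 12.2% lower. The *Fmr1* siRNAs differed in 3 of 8, all higher with siRNA B (*Galnt1* by 0.34, adjusted p = 0.00661, *Galnt6* and *Galnt16*), against 13.3% higher and 11.1% lower. The *Zfp598* siRNAs differed in 3 of 8, with *Galnt1* higher by 1.01 (adjusted p = 1.14e-07) and *Galnt6* and *Galnt7* lower, against 15.6% higher and 19.7% lower. The difference of siRNA effects passed for 1 of 7 with *Fmr1* (*Galnt4*), against 12.2% higher and 9.65% lower. It passed for 2 of 7 with *Zfp598* (*Galnt1* higher and *Galnt6* lower), against 10.1% higher and 11.9% lower.

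Levels of different genes were compared per kilobase of exon (CPM per kb). On that scale *Galnt3* supplied 18.9% and 23.6% of the members' summed level in Scramble siRNA A and B. Its share was 6.88% and 6.65% with *Fmr1* siRNA A and B and 11.4% and 10.4% with *Zfp598* siRNA A and B. *Galnt1*, which was above *Galnt3* in Scramble siRNA A and below it in Scramble siRNA B, supplied 20.2% and 21.6% in the Scramble groups, 25.3% and 29.6% with the *Fmr1* siRNAs, and 22.9% and 40.8% with the *Zfp598* siRNAs. In *Zfp598* siRNA B it exceeded *Galnt2*, which supplied 31.2% there and 32.9% to 42.6% elsewhere. *Galnt4*, *Galnt6*, *Galnt10* and *Galnt16* together stayed small, with *Galnt4* at 1.17% to 1.95%. The summed level itself was 53.6 and 52.1 CPM per kb in Scramble siRNA A and B, 53.7 and 58.0 with the *Fmr1* siRNAs and 54.2 and 61.4 with the *Zfp598* siRNAs. That sum covers these 10 members and leaves out the other transferases of the family, among them *Galnt15* and *Galnt12*, described below.

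**Figure D4:**
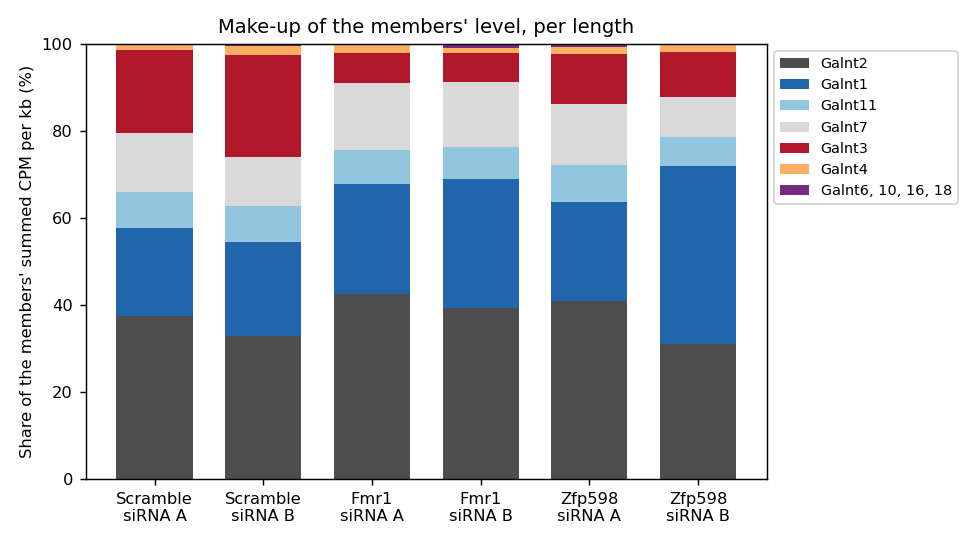
Mean share of each member (y axis, % of the members' summed CPM per kb) in each siRNA group (x axis, n = 3 libraries). *Galnt3* (red) takes 18.9% and 23.6% in the Scramble groups and 6.65% to 11.4% in the knockdown groups, and *Galnt1* (blue) 40.8% with *Zfp598* siRNA B.

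Across the 18 libraries, *Galnt3* on the log2 CPM scale ran against *Galnt2* (Pearson r = −0.70), *Galnt7* (r = −0.65) and *Galnt1* (r = −0.44), while *Galnt2* and *Galnt7* ran together (r = 0.68). Of all genes tested, 1.15% had a lower r with *Galnt3* than *Galnt2* did, 2.13% a lower one than *Galnt7* and 10.7% a lower one than *Galnt1*. *Galnt11* (r = 0.08) and *Galnt4* (r = −0.04) had little relation to *Galnt3*. These values describe libraries that share their siRNA groups. The 5 genes with the pattern most like that of *Galnt3* over the same libraries were *Trim66* (r = 0.94), *Fetub* (r = 0.94), *Stx17* (r = 0.93), *Calr* (r = 0.92) and *Ubn2* (r = 0.89). *Calr* encodes the calcium-binding chaperone calreticulin of the endoplasmic reticulum, *Stx17* a SNARE of autophagosome fusion, and *Fetub* a secreted protein of the fetuin family. Their fitted changes were smaller than those of *Galnt3*, except for *Fetub* with *Zfp598* siRNA B (−1.15 against −0.95). *Calr* measured −0.70, −0.79, −0.50 and −0.52 with *Fmr1* siRNA A, *Fmr1* siRNA B, *Zfp598* siRNA A and *Zfp598* siRNA B.

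Genes next to *Galnt3* on chromosome 2 were read in the same way. *Scn2a*, which encodes a neuronal voltage-gated sodium channel and lies second at lower coordinates, fell with all 4 siRNAs, by −0.49, −0.44, −0.44 and −0.53 in the order above (adjusted p = 0.00153, 0.00421, 0.0101 and 7.92e-04). *Csrnp3*, the nearest gene on that side, fell with *Fmr1* siRNA A (−0.29, adjusted p = 0.0212) and *Zfp598* siRNA A (−0.43, adjusted p = 0.00381). It did not pass with *Fmr1* siRNA B (−0.15, adjusted p = 0.244) or *Zfp598* siRNA B (−0.07, adjusted p = 0.642). The Scramble siRNAs themselves differed in *Csrnp3*, which was lower with siRNA B (−0.34, adjusted p = 0.00759). On the other side, *Ttc21b*, a gene of ciliary transport, fell with *Fmr1* siRNA A alone among these 4 (−0.53, adjusted p = 0.00106). *Scn1a*, a second sodium channel gene, fell with *Fmr1* siRNA A (−1.71, adjusted p = 3.31e-05) and rose with *Zfp598* siRNA B (0.61, adjusted p = 0.0404).

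The remaining GalNAc transferases were mostly at or near 0, with 3 of 9 retained and 2 at 0 in all libraries. None of the 3 passed in a pooled comparison, but *Galnt15* and *Galnt12*, named after their values were seen, changed with single siRNAs in opposite directions. *Galnt15* measured 25.2, 26.2 and 24.0 CPM with Scramble siRNA A, 7.71, 10.2 and 10.1 CPM with *Fmr1* siRNA A (−1.43, adjusted p = 5.08e-07) and 39.02, 39.6 and 41.3 CPM with *Zfp598* siRNA A (0.67, adjusted p = 0.00307). With *Zfp598* siRNA B it measured 6.40, 6.40 and 7.84 CPM against 36.8, 42.3 and 28.7 CPM with Scramble siRNA B (−2.39, adjusted p = 1.42e-09). The Scramble siRNAs themselves differed in *Galnt15* (0.51, adjusted p = 0.00814), and the *Zfp598* siRNA A libraries lay above Scramble siRNA A and inside the range of Scramble siRNA B. *Galnt12* fell with *Fmr1* siRNA A (−0.65, adjusted p = 0.0149) and rose with *Zfp598* siRNA A (0.91, adjusted p = 0.00245). *Galnt17* passed once, higher with *Fmr1* siRNA B (0.79, adjusted p = 0.0450).

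The enzymes that extend and sialylate the first sugar, 11 of 16 of them retained, did not pass in any pooled comparison, with a median of −0.01 for *Fmr1* KD and one of 0.07 for *Zfp598* KD. With single siRNAs, 5 were lower with *Fmr1* siRNA A, among them *C1galt1*, the core 1 synthase, where 13.6% of all genes were lower, and 3 were higher with *Fmr1* siRNA B, against 11.3%. With *Zfp598* siRNA A 1 was higher and 1 lower, against 6.30% and 5.64% of all genes, and with *Zfp598* siRNA B 2 were higher and 2 lower, against 12.4% and 14.4%. Between the Scramble siRNAs themselves 3 were higher and 3 lower with siRNA B, against 10.4% and 12.2%. *C1galt1* was −0.53 there (adjusted p = 3.18e-04). Against the same-letter Scramble it was −0.58 with *Fmr1* siRNA A (adjusted p = 1.08e-04) and 0.04 with *Fmr1* siRNA B (adjusted p = 0.797). Of 12 genes retained for the supply of sugar nucleotides, *Cmas*, which activates sialic acid, fell in *Zfp598* KD (−0.33, adjusted p = 0.0351). It passed with *Zfp598* siRNA A (−0.49, adjusted p = 4.91e-04) but not with siRNA B (−0.18, adjusted p = 0.0984). *Gfpt2*, an entry enzyme of the hexosamine pathway, was higher in *Fmr1* KD than in *Zfp598* KD (1.31, adjusted p = 0.0117). This gene was scarce, at 5 to 81 counts. Against Scramble it was −0.17 with *Fmr1* siRNA A (adjusted p = 0.763), 1.20 with *Fmr1* siRNA B (adjusted p = 0.00936) and −1.09 and −0.40 with the *Zfp598* siRNAs (adjusted p = 0.0582 and 0.465). Of 22 proteins known to carry these sugars, 11 were retained and none passed in a pooled comparison at the mRNA level, with a median of 0.12 for *Fmr1* KD and one of 0.10 for *Zfp598* KD. *Fgf23*, the best known substrate of the *Galnt3* product, averaged 0.0880 CPM and was not retained.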

How the data were processed

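Per the labels, total RNA from N2A cells was rRNA-depleted and sequenced, and the submitters' processing notes name Trim Galore, FastQC, STAR, featureCounts and DESeq2 with the GRCm39 build. Versions, annotation release, strand setting and the handling of reads shared by overlapping genes are not given in the sources used here. The authors deposited raw counts per gene, not normalized, and these were the only values used. The study states biological replicates but the labels give no separate cultures, so p-values measure the spread between these libraries. Members and gene lists were chosen with earlier results of these data known.

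Symbols came from GENCODE M39 (GRCm39), matched by Ensembl identifier (54749 of 55414 genes). Counts were filtered by condition with filterByExpr (minimum count 10, total 15), which left 17901 genes, normalized by TMM in edgeR 4.0.16 (R 4.3.3) and tested with glmQLFit and glmQLFTest, two-sided, with Benjamini-Hochberg adjustment over all genes and a threshold of 0.05. One model had 6 siRNA groups and one had 3 conditions, each with all 18 libraries. Adjusted p-values throughout are from these edgeR fits unless another tool is named. CPM used TMM library sizes, correlations used log2 CPM with a prior count of 2, and exon lengths were those of GENCODE M39. SDs are over 3 libraries. The script was tested on simulated counts. DESeq2 1.42.0 and other settings were alternatives. Named by rule were all members, the siRNA targets and list genes past the threshold in a pooled comparison. So were the 5 genes most correlated with *Galnt3*, its 2 nearest protein-coding genes on each side, and *Poc1b*, which shares exons with *Galnt4*. Other list genes, among them *C1galt1*, *Galnt17*, *Fgf23* and several cell type markers, were named outside that rule. *Galnt12* and *Galnt15* were too, after their values were seen. Besides *Galnt4*, single antisense genes share 1.57% to 8.46% of the exon length of *Galnt2*, *Galnt6*, *Galnt7*, *Galnt11* and *Galnt16*, whose reads cannot be told apart without strand. No libraries of one siRNA agreed within sampling noise (lowest chi-square per degree of freedom 2.78).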

Additional observations from a re-analysis of the deposited data

Results flagged for a closer look

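*Galnt10* in *Fmr1* siRNA B replicate 1, at 2.09 CPM against 0.350 CPM in the next highest of the 6 *Fmr1* KD libraries, lay far from the rest of its group. It was 1 such library among 27 groups of 6 examined, and chance gives about 1 in 20. The same library held the pluripotent stem cell and Y-linked markers, and their part in the *Galnt10* value was not tested.

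The siRNAs of one target had effects that differed past the threshold for 3 member and target pairs in edgeR's test of the difference. For *Galnt4* the *Fmr1* siRNA B effect minus the siRNA A effect was −1.21 (adjusted p = 0.00221). For *Galnt1* the same difference between the *Zfp598* siRNAs was 0.95 (adjusted p = 1.44e-05), and for *Galnt6* it was −2.33 (adjusted p = 0.0214).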

How the results depend on the processing

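Recomputed were 693 log2 fold changes: *Galnt3* against Scramble, chosen for its fall, and member calls already past the threshold in the main fits. A kept direction was therefore likely beforehand, and these counts give no support to the *Galnt3* fall. None changed direction, and 611 kept their side of the threshold or, for *Galnt3* against Scramble, stayed within 1 SD. The cause of the other changes was not tested. The *Galnt3* values against Scramble stayed between −1.79 and −0.65 in all alternatives. With more than 2-fold also required, no other member passed with *Fmr1* siRNA A (0), with *Fmr1* siRNA B (0), between Scramble siRNAs (0) or in the 3 pooled comparisons (0 each), and 1 passed in the *Zfp598* difference of siRNA effects. Without the filter on low counts, the counts were 1 with *Fmr1* siRNA A, 1 between Scramble siRNAs and 0 in pooled *Fmr1* KD. DESeq2 gave 0 with *Zfp598* siRNA A, where its adjusted p for *Galnt6* was not given, 4 between Scramble siRNAs, 2 in the *Fmr1* difference of effects and 2 in pooled *Fmr1* KD. With all 6 Scramble libraries as the control, 2 members passed with *Zfp598* siRNA A. With the siRNA letter as an added term, 3 passed in pooled *Fmr1* KD and 2 in *Fmr1* KD against *Zfp598* KD. With counts summed per siRNA, 2 against 2, 0 passed in each pooled comparison, and *Galnt3* between knockdowns was −0.72 (adjusted p = 0.998).

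Replicate numbers were shared by all groups, and the main fits did not pair libraries by them. Of 45 correlations of same-numbered deviations, 12 were over 0.1 (−0.345 to 0.290). Those of replicate 3 were all positive (0.0485 to 0.223), so something shared by same-numbered libraries is not excluded. With the replicate block, 4 members passed between Scramble siRNAs, 2 in the *Fmr1* difference of effects, 0 in pooled *Fmr1* KD and 0 in pooled *Zfp598* KD. With single libraries left out in turn, the counts were 0 to 2 members with *Fmr1* siRNA A, 3 to 4 with *Fmr1* siRNA B, 0 to 1 with *Zfp598* siRNA A, 1 with *Zfp598* siRNA B, 0 to 4 between Scramble, 1 to 4 between *Fmr1* and 2 to 4 between *Zfp598* siRNAs. They were 1 to 3 and 1 to 2 in the *Fmr1* and *Zfp598* differences of effects, 0 to 1 in each pooled comparison with Scramble KD and 1 to 2 between knockdowns. Leaving out *Fmr1* siRNA B replicate 1 and *Zfp598* siRNA A replicates 2 and 3 together, chosen after seeing the data, gave 4 between Scramble siRNAs, 1 between *Fmr1* siRNAs, 4 and 1 in the *Fmr1* and *Zfp598* differences of effects, 2 in pooled *Fmr1* KD and 2 between knockdowns. Low counts limit *Galnt6*, *Galnt10* and *Galnt16* most.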
